A study of Mus musculus with 15 samples.

Results

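The genes described here are 10 mouse genes, Bin1, Picalm, Cd2ap, Sorl1, Clu, Abca7, Fermt2, Ptk2b, Mef2c and Spi1, whose human counterparts carry common or rare variants tied to the risk of Alzheimer's disease. They were listed by name and matched by symbol in the file of every library, and 10 of 10 were found among 29659 genes. The data are RNA-seq profiles of polyadenylated RNA from the thalamus of 4.5-month-old mice, in 15 libraries of 4 genotypes. EL mice (n = 3) carry the human APOE4 knock-in with Lilrb4a intact, and ELKO mice (n = 3) are APOE4+/+ and Lilrb4a-/-. 5EL mice (n = 5) are 5xFAD, APOE4+/+ and Lilrb4a+/+, and 5ELKO mice (n = 4) are 5xFAD, APOE4+/+ and Lilrb4a-/-. By their labels the mice of all 4 groups share the knock-in of human APOE4, and no comparison given here was made for it. The 5xFAD transgenes are driven by a neuronal promoter, and amyloid plaques form within months of birth. Lilrb4a, an inhibitory receptor of microglia and other myeloid cells, was deleted in the germline and not in a chosen cell type. The study's list of strains spells out the genotypes of 5ELKO, 5EL and ELKO mice, and that of EL mice comes from its description of the groups.

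Several of these genes act on the route by which a membrane protein is taken into the cell and sorted. Clathrin coats form on the plasma membrane with the help of adaptors, the bud is bent and cut off, and receptors in the endosome then return cargo such as the amyloid precursor protein to the Golgi or pass it on to lysosomes. The other genes code for carriers and transporters of lipids, links between integrins and the cytoskeleton, and transcription factors of neurons and microglia. In brain tissue most of them are made by several cell types, while Spi1 is largely limited to microglia and Clu is high in astrocytes.

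The deposited values are on a log2 scale, from -2.27 to 18.98, and a level below is such a value unless it is said to be per kb. Of 105 pairs of libraries, 0 held identical values. Lilrb4a did not exceed 2.33 in any of the 7 Lilrb4a-/- libraries and was 2.34 or higher in the 8 with the gene, a narrow gap near the low end of the scale. Xist did not exceed 0.31 and the Y-linked Ddx3y was at least 10.3 in all libraries, the pattern of males. Mouse Apoe stood at 10.9 in ELKO replicate 1 and at 5.92 to 6.37 in the other 14 libraries, so that this library goes against its label of a homozygous replacement of Apoe, in a group that enters ELKO against EL, 5ELKO against ELKO and the pooled comparisons. All 10 markers of thalamic neurons passed the filter on low values. The mean over 10 choroid plexus markers was 8.04 in 5EL replicate 1 and 8.44 in ELKO replicate 2, against 5.60 to 6.19 in the other 13 libraries. In EL replicate 3 and ELKO replicate 3 genes with long exon sequences were low and genes with short ones high: the slope of a library's deviation on log2 exon length was -0.065 and -0.056 there, -0.039 in 5EL replicate 3, and -0.007 to 0.035 in the other libraries (15285 of 15804 genes with a length). Values without these libraries stand beside the results of Sorl1, Clu, Mef2c and Spi1. In bulk tissue fewer cells of a type and less RNA per cell cannot be told apart, and p-values measure the spread between these libraries.

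All 10 genes were at 3.32 or more, the floor of the filter on low values, in 15 of 15 libraries. Divided by the length of their exons, the levels covered a wide span. Clu was the highest with a mean of 11.89 per kb on the log2 scale (SD 0.11 over 15 libraries), followed by Bin1 at 10.32 (SD 0.05). Ptk2b stood at 8.70 (SD 0.17), Sorl1 at 8.34 (SD 0.28) and Fermt2 at 8.27 (SD 0.09) per kb, and the ranges of these neighbours overlapped. Picalm followed at 7.76 (SD 0.06), Mef2c at 7.09 (SD 0.12) and Abca7 at 6.55 (SD 0.10) per kb. Cd2ap at 4.85 (SD 0.11) and Spi1 at 4.30 (SD 0.11) per kb were the lowest. No other neighbours in this order overlapped over the 15 libraries.

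The genes differed in how steady they were from library to library. Sorl1 spanned 0.97 log2 units over the 15 libraries, a 1.96-fold range, Ptk2b 0.54 and Mef2c 0.44. Bin1 and Picalm spanned 0.21 and 0.20, the least of the 10. Against genes within 0.5 log2 units of its own level, the within-group SD of Sorl1, 0.28, was larger than that of 98.3% of 946 genes, and that of Ptk2b, 0.18, larger than that of 89.3% of 1144. The SD of Bin1, 0.057, was larger than that of 13.3% of 625 such genes.

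**Figure D1:**
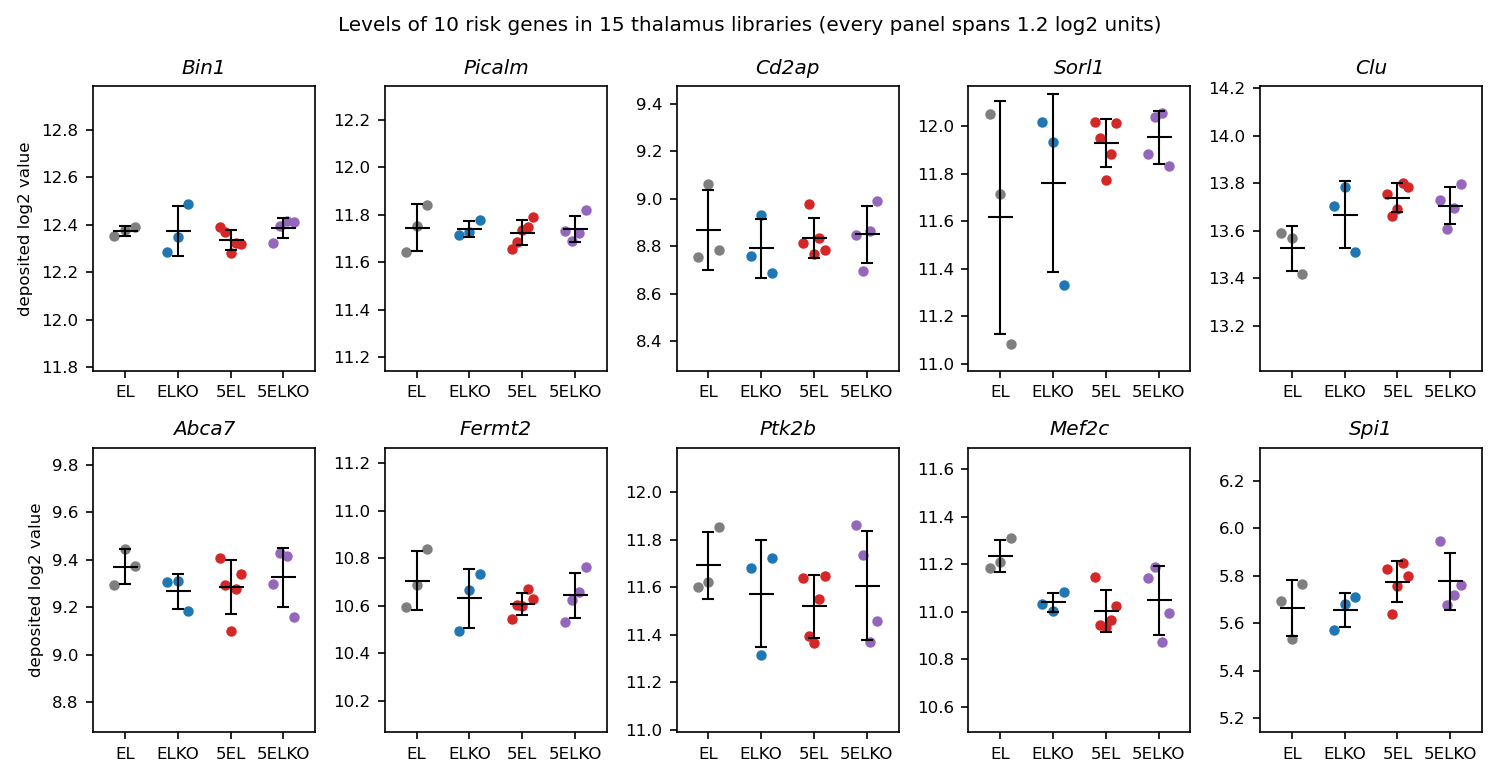
Deposited log2 values of the 10 genes (vertical axes, each spanning the same number of log2 units) in EL, ELKO, 5EL and 5ELKO libraries (horizontal axis). Points are libraries, and bars give the mean ± SD of a group with n = 3, 3, 5 and 4. Sorl1 has 2 low libraries, at 11.08 in EL and 11.33 in ELKO, and the EL libraries of Mef2c lie above and those of Clu below all 5EL libraries.

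The study compared 5ELKO with 5EL mice to ask what the deletion of Lilrb4a does in the presence of amyloid. Its sequencing quality values list more 5ELKO libraries than the 4 used here. In limma with Benjamini-Hochberg adjustment over 15743 genes, 0 of the 10 genes passed an adjusted p of 0.05, as did 0.0191% of all genes, and 0 of the 10 had a nominal p under 0.05, as did 2.49% of all genes. Differences ran from -0.03 in Clu to 0.09 in Ptk2b, with 9 of 10 above 0, a median of 0.03 and a median over all genes of 0.00. The 95% intervals of the 10 genes lay within -0.14 and 0.30, that is from -9.54% (Clu) to 23.0% (Ptk2b). For Bin1 the interval was -2.59% to 9.93% and for Picalm -5.19% to 7.87%. The groups of 5 and 4 libraries overlapped for each of the 10 genes.

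The other comparisons were fitted on all 15 libraries. In ELKO against EL, the deletion without 5xFAD, 0 of 10 genes passed the adjusted threshold (0% of all genes) and 1 of 10 had a nominal p under 0.05 (2.35% of all). In 5EL against EL, 5xFAD with Lilrb4a intact, 0 of 10 passed the adjusted threshold (0% of all genes) and 2 of 10 had a nominal p under 0.05 (7.7% of all). In 5ELKO against ELKO, 5xFAD without Lilrb4a, these counts were 0 (0% of all genes) and 0 (2.37% of all). With 5xFAD pooled over both Lilrb4a genotypes they were 0 (0% of all genes) and 3 (6.57% of all), with the deletion pooled over 5xFAD 0 (0% of all) and 0 (1.8% of all), and for the interaction of deletion and 5xFAD 0 (0% of all) and 1 (2.73% of all). The groups did not overlap for 2 of 10 genes in 5EL against EL, against 3.26% of all genes, and for 1 of 10 in ELKO against EL, against 4.59%. 5EL against EL and ELKO against EL share the 3 EL libraries, and leaving out EL replicate 1 alone took the genes called in 5EL against EL from 0 to 31 of 15804, none of them among the 10.

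**Figure D2:**
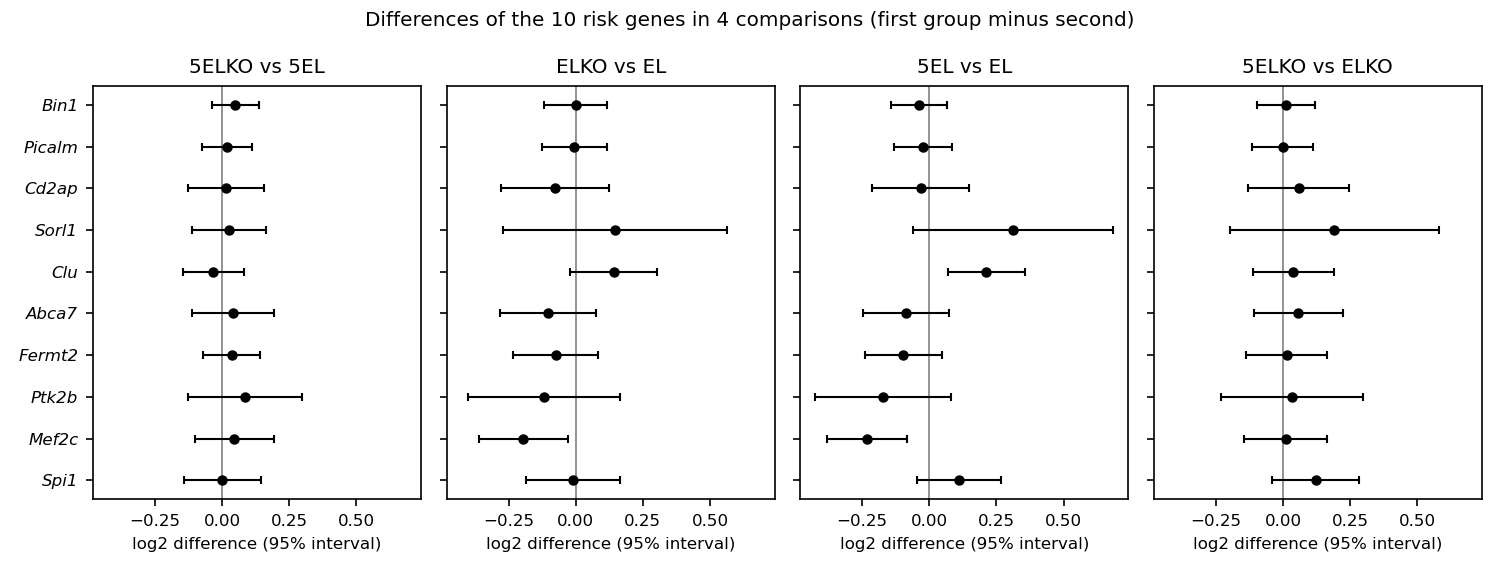
Differences of the 10 genes (rows) in 4 comparisons (panels), as log2 differences with 95% intervals from limma on the horizontal axis, first group minus second. The intervals exclude 0 for Clu and Mef2c in 5EL against EL, at 0.21 and -0.23, and for Mef2c in ELKO against EL, at -0.20.

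Among the endocytic genes Bin1 and Picalm were steady and Cd2ap less so. Bin1 codes for amphiphysin 2, a BAR-domain protein that senses and bends membranes, and Picalm for a clathrin assembly protein that binds the lipids of the plasma membrane. Cd2ap codes for a scaffold that ties endocytosed receptors to actin. Bin1 (chr18:32377230-32435737, GRCm38) lay between 12.28 and 12.49 in the 15 libraries, with group means of 12.37 ± 0.02 in EL (SD, n = 3), 12.37 ± 0.10 in ELKO (n = 3), 12.34 ± 0.04 in 5EL (n = 5) and 12.39 ± 0.04 in 5ELKO (n = 4). Picalm (chr7:90130213-90213465) lay between 11.64 and 11.84, with group means from 11.72 in 5EL to 11.75 in EL. The group means of Bin1 spanned 0.05 and those of Picalm 0.02 log2 units, less than the libraries of ELKO did for Bin1 and those of EL for Picalm. Cd2ap (chr17:42792951-42876665) ran from 8.69 in ELKO replicate 3 to 9.06 in EL replicate 2, both in mice without 5xFAD. With 5xFAD pooled over Lilrb4a genotypes the differences were -0.01 (95% interval -0.09 to 0.06) for Bin1, -0.01 (-0.09 to 0.07) for Picalm and 0.01 (-0.12 to 0.14) for Cd2ap. Exons of Bin1 overlap the noncoding gene A830052D11Rik on the opposite strand, and reads were counted without regard to strand. That gene was at 3.67 to 3.88.

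Around them, the clathrin machinery was described by a list. List genes outside the 10 are named here and below after their values had been seen, unless they were chosen by likeness or as checks. Of 30 coat, adaptor, scission and uncoating genes, all tested, 0 had a nominal p under 0.05 with 5xFAD pooled (6.57% of all genes), 21 lay above 0, and their median was 0.01. In 5ELKO against 5EL, 1 of 30 had a nominal p under 0.05 (2.49% of all genes), Sh3kbp1, a relative of Cd2ap, and 0 passed the adjusted threshold. In 5EL against EL the 1 of 30 at that p (7.7% of all genes) was Sh3gl1, an endophilin, at -0.14 (SE 0.05, adjusted p = 0.63 in limma).

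Sorl1 varied most among the 10 genes. It codes for SORLA, a sorting receptor that binds the amyloid precursor protein and, with retromer, brings it back from endosomes to the Golgi. The gene lies on the minus strand (chr9:41964720-42124297, 11.32 kb of exons in 4 annotated transcripts). RefSeq places 2 start sites in it, and since reads were summed by gene name, the values below add transcripts of both. The 250 bases before each start (RefSeq, GRCm38.p6, minus strand) are shown because they show how unlike these starts are, with the GC box GGGCGG or its reverse complement CCGCCC in capitals.
Sorl1, chr9:42124298-42124547: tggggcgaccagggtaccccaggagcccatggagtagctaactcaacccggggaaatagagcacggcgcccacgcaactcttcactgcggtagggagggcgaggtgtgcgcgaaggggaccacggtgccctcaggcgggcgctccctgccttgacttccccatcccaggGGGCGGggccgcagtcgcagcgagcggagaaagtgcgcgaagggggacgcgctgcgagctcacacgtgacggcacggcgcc
Sorl1, chr9:42077214-42077463: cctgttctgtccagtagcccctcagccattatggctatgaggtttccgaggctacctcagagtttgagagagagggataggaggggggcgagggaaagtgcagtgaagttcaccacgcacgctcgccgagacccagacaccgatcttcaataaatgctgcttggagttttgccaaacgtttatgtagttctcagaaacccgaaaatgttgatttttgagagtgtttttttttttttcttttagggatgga
The window of the outer start holds 26 CpG dinucleotides and 1 GC box, and that of the inner start 9 and 0. Among 32851 RefSeq promoter windows of this length 32.7% hold such a box, and the median number of CpG is 6.

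Sorl1 was at 12.05, 11.72 and 11.08 in EL replicates 1 to 3 and at 12.02, 11.93 and 11.33 in ELKO replicates 1 to 3. It was at 12.02, 11.95, 11.78, 11.88 and 12.01 in 5EL replicates 1 to 5 and at 11.88, 12.04, 12.06 and 11.83 in 5ELKO replicates 1 to 4. The libraries EL replicate 3 and ELKO replicate 3 were low, and the other 13 lay within 11.72 and 12.06, so that all groups overlapped. In limma with Benjamini-Hochberg adjustment Sorl1 was 0.25 higher with 5xFAD pooled over Lilrb4a genotypes (SE 0.13, 19.1%, adjusted p = 0.693). Without EL replicate 3 and ELKO replicate 3 this difference was 0.01 (SE 0.07), without ELKO replicate 1 it was 0.32 (SE 0.13), without the choroid plexus libraries 0.28 (SE 0.14), and with the exon-length slope of each library as a covariate it was 0.10 (SE 0.06). In 5EL against EL it was 0.31 (SE 0.18) with all libraries, 0.05 without EL replicate 3 and 0.53 without EL replicate 1. The deletion gave 0.02 in 5ELKO against 5EL (95% interval -0.11 to 0.16).

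Across the 15 libraries the level of Sorl1 followed the exon-length slope with a Pearson r of 0.91 (Spearman rho 0.82), and with r = 0.73 over the 13 libraries that remain without the low ones. Over the 9 libraries with 5xFAD r was 0.84. The 3 tested genes whose levels were most like those of Sorl1 over the 15 libraries were Prr12 (r = 0.98), Chd5 (r = 0.98) and Mdn1 (r = 0.98), with exons of 7185, 9583 and 21836 bases. Each of these was lowest in EL replicate 3, the library with the steepest slope. Points of these correlations share a library and its normalization, and the part of exon length in the level of Sorl1 was not tested beyond the covariate. Exons of Sorl1 overlap the antisense gene Gm16214, which was at 0.52 to 0.58. Of 26 genes of retromer and endosomal sorting, all tested, 0 had a nominal p under 0.05 in 5EL against EL (7.7% of all genes), in 5ELKO against 5EL (2.49%) or with 5xFAD pooled (6.57%), and in the last 17 lay below 0 with a median of -0.02. In 5ELKO against ELKO 1 of 26 did (2.37% of all genes), the retromer subunit Vps35 at -0.11 (SE 0.05, adjusted p = 0.9995 in limma).

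**Figure D3:**
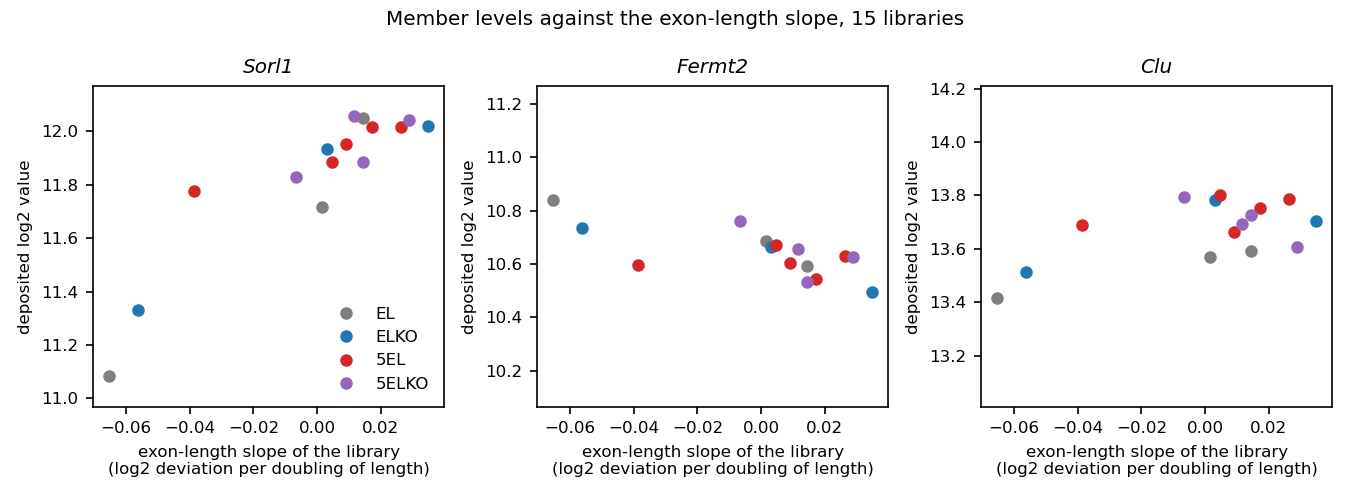
Deposited log2 values of Sorl1, Fermt2 and Clu (vertical axes, each spanning the same number of log2 units) against the exon-length slope of the library (horizontal axis, log2 deviation per doubling of exon length) in 15 libraries, coloured by group. Sorl1 rises with the slope (r = 0.91), Fermt2 falls with it (r = -0.71), and the points at the far left are EL replicate 3 and ELKO replicate 3. Without these libraries (n = 13) r was 0.73 for Sorl1 and -0.40 for Fermt2, and over the 9 libraries with 5xFAD 0.84 and -0.19.

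Clu and Abca7 handle lipids. Clu codes for clusterin, a secreted chaperone that binds lipids and amyloid and is made in quantity by astrocytes. The gene (chr14:65968483-65981547) was at 13.59, 13.57 and 13.42 in EL replicates 1 to 3 and at 13.71, 13.78 and 13.51 in ELKO replicates 1 to 3. It was at 13.75, 13.66, 13.69, 13.80 and 13.79 in 5EL replicates 1 to 5 and at 13.73, 13.61, 13.69 and 13.80 in 5ELKO replicates 1 to 4. All 5 libraries of 5EL lay above all 3 of EL, whereas 5ELKO and ELKO overlapped. Clu was 0.21 higher in 5EL than in EL (SE 0.07, 15.8%, 95% interval 4.81% to 28.0%, adjusted p = 0.63 in limma). The exact permutation test of this difference gave p = 0.0179 (two-sided), the smallest that 5 against 3 libraries allow. In 5ELKO against ELKO the difference was 0.04 (SE 0.07, adjusted p = 0.9995 in limma). Pooled over both it was 0.13 (SE 0.05, adjusted p = 0.693 in limma), with an exact permutation p of 0.0347 when 5xFAD was permuted within each Lilrb4a genotype.

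Clu was lowest in EL replicate 3 and ELKO replicate 3. Without both, the difference was 0.16 in 5EL against EL (SE 0.06), 0.06 with 5xFAD pooled (SE 0.04) and -0.04 in 5ELKO against ELKO (SE 0.06). With the exon-length slope as a covariate it was 0.18, 0.09 and 0.01 in the same order. With 5xFAD pooled it was 0.13 (SE 0.05) without ELKO replicate 1 and 0.15 (SE 0.05) without the choroid plexus libraries. In ELKO against EL the difference of Clu was 0.14 (SE 0.08, adjusted p = 0.998 in limma), with 0.11, 0.21 and 0.10 within the same-numbered pairs 1 to 3, and it was 0.08 without ELKO replicate 2. The gene most like Clu over the 15 libraries was Gfap (r = 0.89), the intermediate filament of reactive astrocytes, which was 1.08 higher with 5xFAD pooled (SE 0.22, adjusted p = 0.653 in limma). Gfap ran from 9.66 to 10.5 in EL, 9.93 to 11.2 in ELKO, 11.1 to 11.9 in 5EL and 10.8 to 12.1 in 5ELKO. Of the 10 astrocyte markers only Gfap had a nominal p under 0.05 with 5xFAD pooled (6.57% of all genes). In 5EL against EL, where Clu was higher, 4 of the 10 lay above 0 and 6 below, with a median of -0.05. Next were Mrc2 (r = 0.89) and Abcc4 (r = 0.88).

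Abca7, an ABC transporter that moves phospholipids across membranes, was at 9.10 to 9.44 (chr10:79996494-80015572), lowest in 5EL replicate 3 and highest in EL replicate 2. Its group means were 9.37 ± 0.07 in EL (n = 3), 9.27 ± 0.07 in ELKO (n = 3), 9.28 ± 0.11 in 5EL (n = 5) and 9.32 ± 0.12 in 5ELKO (n = 4), and the groups overlapped in all 4 comparisons. With 5xFAD pooled the difference was -0.01 (95% interval -0.13 to 0.10). Among the 9 libraries with 5xFAD the level of Abca7 followed the exon-length slope with r = 0.88, against 0.44 over all 15.

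Fermt2 and Ptk2b act where cells attach. Fermt2 codes for kindlin-2, which activates integrins, and Ptk2b for PYK2, a calcium-responsive tyrosine kinase related to focal adhesion kinase that is abundant in neurons. Fermt2 (chr14:45458795-45530118) ran from 10.49 in ELKO replicate 1 to 10.84 in EL replicate 3, and its group means from 10.61 ± 0.05 in 5EL (n = 5) to 10.71 ± 0.12 in EL (n = 3). With 5xFAD pooled the difference was -0.04 (95% interval -0.15 to 0.06). Its level followed the mean of 8 endothelial markers with r = 0.88 over 15 libraries and r = 0.91 over the 9 with 5xFAD, and the mean of 10 oligodendrocyte markers with r = 0.77 and 0.69. The genes most like it were Car2 (r = 0.93), Gng11 (r = 0.93) and Lap3 (r = 0.92).

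Ptk2b lies 171.7 kb from Clu (chr14:66153257-66281052) on the other strand, and in human genetics both genes are named at neighbouring risk loci. It was at 11.60, 11.62 and 11.86 in EL replicates 1 to 3 and at 11.68, 11.32 and 11.72 in ELKO replicates 1 to 3. It was at 11.64, 11.40, 11.36, 11.55 and 11.65 in 5EL replicates 1 to 5 and at 11.86, 11.73, 11.37 and 11.46 in 5ELKO replicates 1 to 4. High and low libraries stood within each group, with 11.86 and 11.37 both in 5ELKO, and the groups overlapped in all 4 comparisons. The differences were -0.17 in 5EL against EL (SE 0.12, adjusted p = 0.65 in limma) and 0.09 in 5ELKO against 5EL (SE 0.10, adjusted p = 0.999 in limma). The first was -0.09 without EL replicate 3, and the second 0.001 without 5ELKO replicate 1 and 0.16 without 5ELKO replicate 3. Across the 15 libraries the levels of Clu and Ptk2b had r = -0.47, and those of Ptk2b and Mef2c r = 0.78. Of 19 tested genes of integrin adhesion, 3 had a nominal p under 0.05 with 5xFAD pooled (6.57% of all genes), and 0 passed the adjusted threshold. These were Itgb5 at 0.19 (SE 0.06), Parvb at 0.13 (SE 0.05) and Tln1 at 0.11 (SE 0.04).

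Mef2c codes for a transcription factor of neurons, where it shapes synapse number, and of microglia. Of the 31 transcripts annotated at the gene (chr13:83504034-83667080, plus strand), many start far apart, and the values add them all. RefSeq places 3 start sites in it, and the 250 bases before the outermost and the innermost (GRCm38.p6, plus strand) are shown with any GC box in capitals.
Mef2c, chr13:83503784-83504033: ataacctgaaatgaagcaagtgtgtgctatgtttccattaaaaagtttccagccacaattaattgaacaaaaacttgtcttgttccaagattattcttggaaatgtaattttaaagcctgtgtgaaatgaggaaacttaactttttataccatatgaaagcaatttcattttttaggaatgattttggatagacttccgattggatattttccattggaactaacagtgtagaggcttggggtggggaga
Mef2c, chr13:83573357-83573606: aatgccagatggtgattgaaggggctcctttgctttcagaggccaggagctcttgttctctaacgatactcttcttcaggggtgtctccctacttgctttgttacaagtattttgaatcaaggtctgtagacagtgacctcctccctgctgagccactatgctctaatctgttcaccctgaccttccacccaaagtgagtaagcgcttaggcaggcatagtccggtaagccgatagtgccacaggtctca
These windows hold 1 and 4 CpG dinucleotides and 0 GC boxes, and that of the start between them 6 and 1.

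Mef2c was at 11.19, 11.21 and 11.31 in EL replicates 1 to 3 and at 11.03, 11.001 and 11.08 in ELKO replicates 1 to 3. It was at 11.15, 10.95, 10.94, 10.96 and 11.02 in 5EL replicates 1 to 5 and at 11.14, 11.19, 10.87 and 10.99 in 5ELKO replicates 1 to 4. All 3 libraries of EL lay above all of ELKO and all of 5EL, while 5ELKO overlapped every other group. In 5EL against EL the log2 difference of Mef2c was -0.23 (SE 0.07, -14.9%, 95% interval -23.2% to -5.67%, adjusted p = 0.63 in limma). The exact permutation test gave p = 0.0179 (two-sided), the smallest possible for these groups. In ELKO against EL the log2 difference was -0.20 (SE 0.08, adjusted p = 0.998 in limma), and the exact permutation p was 0.1, the smallest that 3 against 3 libraries allow. Both comparisons rest on the same 3 EL libraries. Within the same-numbered pairs 1 to 3 of ELKO and EL, which this permutation does not use, the differences were -0.15, -0.21 and -0.23, and with the replicate block the SE was 0.08. Without EL replicate 3 and ELKO replicate 3 the difference in 5EL against EL was -0.19 (SE 0.08), and in ELKO against EL it was -0.18 without ELKO replicate 2, -0.19 without ELKO replicate 1 and -0.16 without EL replicate 3. The mean of 5 erythroid markers, a sign of blood in the sample, was 4.16 to 5.39 in EL, 3.93 to 4.02 in ELKO, 4.07 to 4.27 in 5EL and 4.02 to 4.42 in 5ELKO, and its part in these differences was not tested.

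With 5xFAD pooled over Lilrb4a genotypes the log2 difference of Mef2c was -0.11 (SE 0.05, adjusted p = 0.693 in limma), with an exact permutation p of 0.0903 (two-sided) and a nominal p over 0.05 when any of 10 of the 15 libraries was left out. It was -0.11 without ELKO replicate 1, -0.14 without the choroid plexus libraries and -0.08 without EL replicate 3 and ELKO replicate 3. Among mice with 5xFAD the deletion left Mef2c at 0.05 (SE 0.07, 95% interval -0.10 to 0.19) in 5ELKO against 5EL, and without Lilrb4a 5xFAD left it at 0.01 (SE 0.07) in 5ELKO against ELKO. The test of the difference between the deletion effects with and without 5xFAD gave 0.24 (SE 0.10, adjusted p = 0.9996 in limma). The level of Mef2c followed the mean of 10 thalamic neuron markers with r = 0.88 over 15 libraries (Spearman rho 0.94) and r = 0.87 over the 9 with 5xFAD. That mean ran from 12.71 to 12.75 in EL, 12.53 to 12.67 in ELKO, 12.38 to 12.71 in 5EL and 12.48 to 12.76 in 5ELKO, and 0 of the 10 markers were at the floor in all libraries. Of these markers 9 of 10 lay below 0 in 5EL against EL, 6 with a nominal p under 0.05, and 0 passed the adjusted threshold. Their part in the difference of Mef2c was not tested. The genes most like Mef2c were Ywhaz (r = 0.92), which codes for a 14-3-3 protein, Lrrc3 (r = 0.91) and Nell2 (r = 0.91). Of 11 tested relatives and regulators of Mef2c, 2 had a nominal p under 0.05 in 5EL against EL (7.7% of all genes), Mef2a at -0.15 (SE 0.06) and the calcineurin subunit Ppp3ca at -0.23 (SE 0.09), and 0 did with 5xFAD pooled (6.57% of all genes).

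Spi1 codes for PU.1, the transcription factor that microglia and other myeloid cells depend on. It was the lowest of the 10 genes (chr2:91082390-91115756), at 5.69, 5.53 and 5.77 in EL replicates 1 to 3 and at 5.57, 5.68 and 5.71 in ELKO replicates 1 to 3. It was at 5.83, 5.64, 5.76, 5.85 and 5.80 in 5EL replicates 1 to 5 and at 5.95, 5.68, 5.72 and 5.76 in 5ELKO replicates 1 to 4. The libraries with 5xFAD tended to the higher end, with 4 of 9 above all 6 without it, but the groups overlapped. With 5xFAD pooled the difference was 0.12 (SE 0.05, 8.42%, 95% interval 0.28% to 17.2%, adjusted p = 0.693 in limma), with an exact permutation p of 0.0413 (two-sided). Leaving out each library in turn gave 0.08 to 0.14, with a nominal p over 0.05 for 10 of 15 libraries, ELKO replicate 1 (0.10) and ELKO replicate 2 (0.12) among them. It was 0.16 without EL replicate 3 and ELKO replicate 3, and 0.12 (SE 0.06) without the choroid plexus libraries. It was 0.11 (SE 0.07) with Lilrb4a intact and 0.12 (SE 0.08) without it. The deletion gave 0.00 in 5ELKO against 5EL (95% interval -0.14 to 0.15) and -0.01 in ELKO against EL (-0.18 to 0.16).

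The levels of Spi1 went with those of microglial genes. The genes most like it over 15 libraries were C3ar1 (r = 0.86), the receptor of the complement fragment C3a, Tyrobp (r = 0.84), the signalling partner of Trem2, and Slc15a3 (r = 0.82). With the mean of 12 microglia markers r was 0.76 over 15 libraries and 0.72 over the 9 with 5xFAD. That mean ran from 8.52 to 8.67 in EL, 8.50 to 8.71 in ELKO, 8.62 to 8.90 in 5EL and 8.52 to 8.99 in 5ELKO. With 5xFAD pooled 8 of the 12 had a nominal p under 0.05, all higher, as did 6.57% of all genes in either direction. All 8 tested relatives and partners of Spi1 lay above 0 in that comparison and 3 had a nominal p under 0.05 (6.57% of all genes). Among them were Sall1 at 0.22 (SE 0.04) and Irf8 at 0.28 (SE 0.08), with adjusted p of 0.653 and 0.693 in limma. Whether the level of Spi1 differed per microglial cell was not tested.

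**Figure D4:**
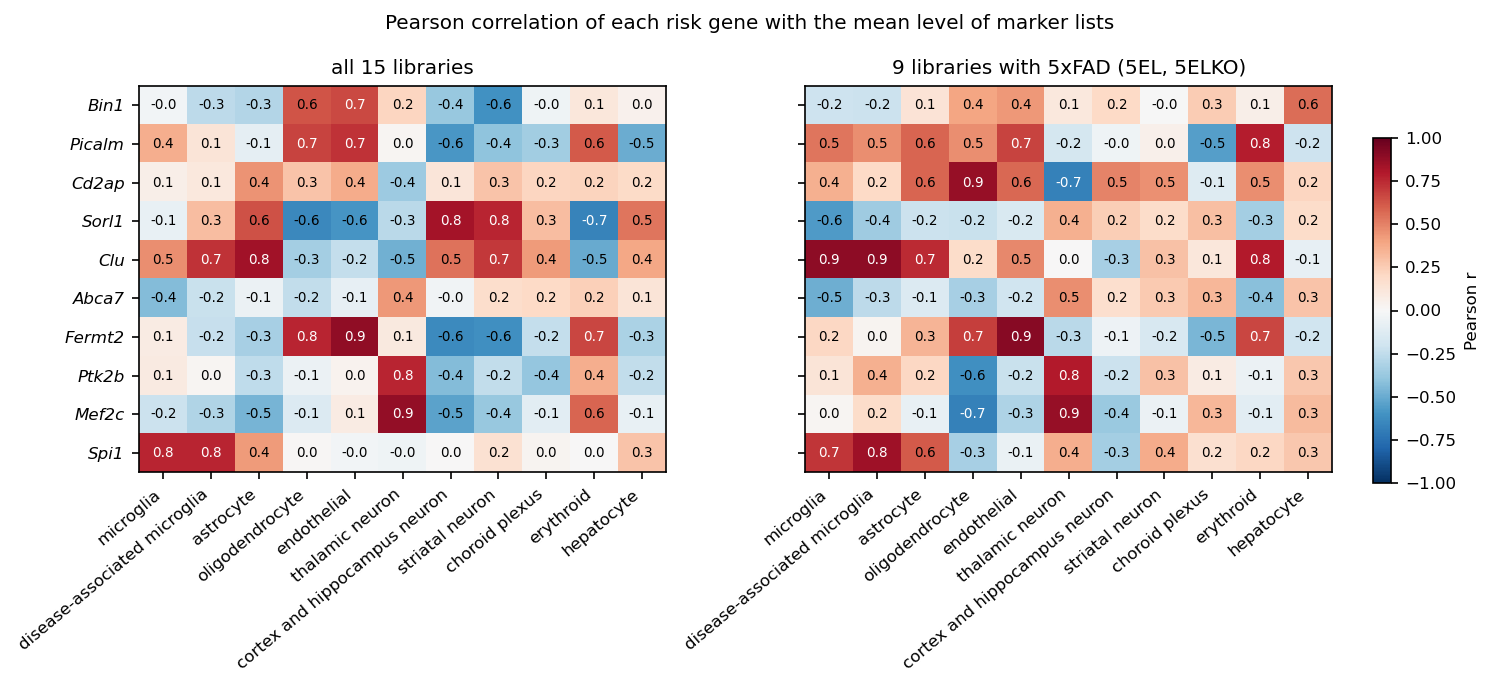
Pearson correlation of the level of each gene (rows) with the mean level of 11 lists of cell type or state markers (columns), over all 15 libraries and over the 9 libraries with 5xFAD. Colour and printed digits give r. Above 0.7 in both are Fermt2 with endothelial markers, Mef2c and Ptk2b with thalamic neuron markers, Spi1 with markers of microglia and of disease-associated microglia, and Clu with markers of astrocytes and of disease-associated microglia.

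The 10 genes followed different cell type markers, with overlaps. Mef2c and Ptk2b went with thalamic neuron markers (r = 0.88 and 0.76 over 15 libraries), Spi1 with microglia markers, Fermt2 and Picalm with endothelial markers (r = 0.88 and 0.73), and Clu with astrocyte markers (r = 0.84). Clu also followed the 12 markers of disease-associated microglia, with r = 0.73 over 15 libraries and 0.89 over the 9 with 5xFAD, and so did Spi1, with 0.76 and 0.85. Over those 9 libraries Clu had r = 0.89 with microglia markers and 0.75 with astrocyte markers, against 0.47 and 0.84 over 15. Bin1 had r = 0.66 with endothelial and 0.63 with oligodendrocyte markers over 15 libraries, and 0.44 and 0.39 over the 9 with 5xFAD. For Cd2ap these were 0.37 and 0.29 over 15 libraries, below its 0.45 with astrocyte markers, and 0.58 and 0.87 over the 9. Without EL replicate 3 and ELKO replicate 3 they were 0.72 and 0.71 for Cd2ap. Over 15 libraries Abca7 did not pass 0.44 with any list. Some relations changed with the libraries used. Clu and Sorl1 had r = 0.71 over 15 libraries and 0.02 without EL replicate 3 and ELKO replicate 3. With markers of cortical and hippocampal neurons Sorl1 had r = 0.83 over 15 libraries. That r was 0.60 without EL replicate 3 and ELKO replicate 3, and 0.25 over the 9 libraries with 5xFAD. These correlations describe levels in shared libraries and carry no test.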

How the data were processed

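Reads were trimmed by the authors (Trimmomatic 0.39) and mapped to GRCm38 (HISAT2 2.2.1, SAMtools 1.16.1), and featureCounts 2.0.3 assigned pairs to exons under each gene's name, ignoring strand. The deposited values are on a log2 scale and not counts. The transform is not given in the sources used here, and low genes are drawn together (median within-group SD 0.0037 below a mean of 0, 0.096 at means of 10 to 12). The study gives total reads and RNA integrity for its 5EL and 5ELKO libraries but not for EL and ELKO. RNA integrity reached lower values in 5ELKO than in 5EL, and neither measure was used in the fits. Groups and replicate numbers came from the sample labels. Genes at 3.32 or above in at least as many libraries as the smallest of the groups holds were fitted with limma 3.58.1 in R 4.3.3 (lmFit, eBayes with trend) and adjusted by Benjamini-Hochberg over all of them: 9 libraries and 15743 genes for 5ELKO against 5EL, 15 libraries and 15804 genes otherwise. The fit was tested on simulated data. Single genes were also compared by two-sided exact permutation tests. Coordinates, exon lengths and overlaps came from GENCODE M21, and promoter windows from RefSeq (6 of the 10 genes matched). The 10 genes are named in full. Other genes follow a rule: the 3 most alike by Pearson r and up to 4 of a list past the adjusted threshold. Checks of genotype and sex are also named. Past that threshold were Alb, Serpina3k and Bhmt, from a list of 12 hepatocyte markers. All were higher in 5ELKO than in 5EL, and they were the 3 genes called in that comparison. No other list gene passed it in any comparison. List genes outside this rule were named after their values had been seen. The genes and lists were chosen with earlier results of these data known. Replicate numbers paired EL with ELKO libraries by the rule that every pair's deviations correlate above 0.1 (r = 0.33 to 0.74, 3 of 3 pairs), though the labels do not say what a number shares. By this rule they did not pair the other groups. For 5EL and EL r was 0.05 to 0.23, with 2 of 3 pairs above 0.1. For 5ELKO and ELKO it was -0.32 to 0.21, and for 5EL and 5ELKO -0.24 to 0.14. Alternatives were other filters, eBayes settings, median centring, a replicate block, covariates and libraries left out.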

Additional observations from a re-analysis of the deposited data

Results flagged for a closer look

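The deletion of Lilrb4a went with a different change of Mef2c with 5xFAD than without it: 0.05 in 5ELKO against 5EL and -0.20 in ELKO against EL, a difference of 0.24 on the log2 scale (SE 0.10, adjusted p = 0.9996 in limma). It is given because the test of the difference itself had a nominal p under 0.05, as 1 of 10 such tests over the 10 genes and 2.73% of all genes did. Leaving out each library in turn gave 0.20 to 0.30, with the nominal p over 0.05 for 4 of 15: EL replicate 3, ELKO replicate 2, 5ELKO replicate 1 and 5ELKO replicate 2. The mean of the thalamic neuron markers was 12.71 to 12.75 in EL and 12.53 to 12.67 in ELKO. Of these 10 markers 9 lay above 0 in the same interaction, with a median of 0.22 against -0.002 over all genes. In ELKO against EL 9 of 10 lay below 0, with a median of -0.16. In 5ELKO against 5EL all 10 lay above 0, with a median of 0.05. The part of these markers in the difference of Mef2c was not tested. For a single library far from the rest of its group, 20 sets of values (the 10 genes in 5EL and in 5ELKO) were examined and 0 were found, where chance gives about 1 in 20.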

How the results depend on the processing

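For the 10 genes, 46 differences were recomputed under each alternative, 1129 values in all. None passed an adjusted p of 0.05 in limma, the smallest being 0.114 (Mef2c in 5EL against EL without EL replicate 1), and 73 changed sign, in 25 differences; the cause of a change was not tested. Chosen after seeing the data were the exon-length slope as a covariate, leaving out EL replicate 3 with ELKO replicate 3, and the replicate block on only the groups compared. Groups of 3, and fits that did not use depth or RNA integrity, limit all comparisons, and levels of low genes were drawn together before deposit.

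The values that follow are log2 differences unless called a level. Without EL replicate 3 and ELKO replicate 3, those with 5xFAD pooled were 0.02 for Bin1, 0.02 for Picalm, -0.03 for Cd2ap, 0.02 for Fermt2 and 0.01 for Ptk2b, Picalm was 0.02 in 5EL against EL, Clu -0.04 and Sorl1 -0.02 in 5ELKO against ELKO, and Spi1 0.01 in ELKO against EL, 0.01 for the pooled deletion and -0.01 for the interaction. With the slope as a covariate, Bin1 was 0.002 and Picalm 0.01 with 5xFAD pooled, Picalm 0.001 in 5EL against EL, Sorl1 -0.01 and Spi1 -0.0003 in 5ELKO against 5EL, and Spi1 0.001 in ELKO against EL and 0.01 for the pooled deletion. With Xist as a covariate Sorl1 was -0.003 in 5ELKO against 5EL, and without the choroid plexus libraries Picalm was -0.0007 there and Mef2c -0.01 in 5ELKO against ELKO.

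With the replicate block and 5xFAD pooled, Abca7 was 0.005 and Cd2ap -0.002. The block left the calls in ELKO against EL at 0. In the fit of 15 libraries, 438 genes had a nominal p under 0.05 with the block and 372 without it. In fits of those groups alone, 1110 did with the block and 173 without it. In 5ELKO against 5EL, which was fitted on only those groups, the block gave 1 call in place of 3. Of 3 pairs of EL and ELKO libraries, 2 ELKO libraries correlated best with their own number, and of 3 pairs of EL and 5EL libraries, 2 5EL libraries did. The calls in 5ELKO against 5EL were also 0 in the fit of all 15 libraries, 0 with the slope as a covariate, 0 under a stricter filter and 1 without a filter, and in 5EL against EL they were 1 without a filter.

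Leaving out each library in turn, the calls ran from 0 to 31 in 5EL against EL, 0 to 2 in 5ELKO against ELKO and 0 to 1 in ELKO against EL, each highest without EL replicate 1, and from 0 to 4 in 5ELKO against 5EL. In 5ELKO against 5EL the ranges that crossed 0 were -0.005 to 0.10 for Abca7, -0.03 to 0.07 for Cd2ap, -0.06 to 0.0008 for Clu, -0.003 to 0.07 for Fermt2, -0.001 to 0.11 for Mef2c, -0.01 to 0.03 for Picalm, -0.01 to 0.06 for Sorl1 and -0.06 to 0.03 for Spi1. With 5xFAD pooled they were -0.04 to 0.01 for Abca7, -0.04 to 0.02 for Bin1, -0.02 to 0.06 for Cd2ap and -0.04 to 0.01 for Picalm. In 5EL against EL they were -0.09 to 0.06 for Cd2ap and -0.07 to 0.02 for Picalm, and in 5ELKO against ELKO they included -0.04 to 0.10 for Clu, -0.04 to 0.07 for Mef2c and -0.02 to 0.32 for Sorl1. For Sorl1 and Spi1 they were -0.12 to 0.36 and -0.08 to 0.04 in ELKO against EL, -0.05 to 0.19 and -0.04 to 0.02 for the pooled deletion, and -0.34 to 0.14 and -0.05 to 0.08 for the interaction. Other ranges also crossed 0. They were those of Bin1, Picalm and Ptk2b in 5ELKO against ELKO, ELKO against EL and the pooled deletion. The same held for Cd2ap in ELKO against EL, the pooled deletion and the interaction. It also held for Fermt2 in 5ELKO against ELKO and the pooled deletion, and for Picalm in the interaction. Not all of these differences were near 0. In ELKO against EL Ptk2b was at -0.12 (range -0.19 to 0.009) and Cd2ap at -0.08 (-0.145 to 0.02). For the interaction Cd2ap was at 0.09 (-0.006 to 0.16).

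The genes at a nominal p under 0.05 numbered 257 under a stricter filter to 912 without a filter in 5ELKO against 5EL (392 as reported) and 232 to 935 under these filters in 5ELKO against ELKO (375). Without EL replicate 1 they numbered 3204 in 5EL against EL, 1830 in ELKO against EL, 2735 with 5xFAD pooled, 1236 for the pooled deletion and 1229 for the interaction. Without EL replicate 3 they numbered 354 in 5EL against EL, and without it and ELKO replicate 3 344 with 5xFAD pooled. Median centring of the libraries moved the split into higher and lower from 166 and 206 to 101 and 317 in ELKO against EL, from 604 and 613 to 455 and 800 in 5EL against EL, from 234 and 141 to 279 and 94 in 5ELKO against ELKO, from 151 and 134 to 108 and 172 for the pooled deletion, and from 237 and 195 to 345 and 125 for the interaction.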

Other observations

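Beyond the 10 genes, 33 of 36 other genes named in human studies of Alzheimer's disease were tested. With 5xFAD pooled over Lilrb4a genotypes 28 of them lay above 0 and 5 below, with a median of 0.05 against 0.00 over all genes, and 7 had a nominal p under 0.05, all higher, where 6.57% of all genes did. None passed the adjusted threshold in limma. The genes were Trem2 at 0.52 (SE 0.14), the lipid-sensing receptor of microglia, Grn at 0.25 (SE 0.07), Inpp5d at 0.25 (SE 0.07), Ctsb at 0.12 (SE 0.04), Ctsh at 0.13 (SE 0.06), Plcg2 at 0.14 (SE 0.06) and Adam10 at 0.09 (SE 0.04). They were named after their values had been seen. In 5ELKO against 5EL 22 of the 33 lay above 0, with a median of 0.01, and 0 had a nominal p under 0.05 (2.49% of all genes). The 12 markers of disease-associated microglia all lay above 0 with 5xFAD pooled, 11 with a nominal p under 0.05 and a median of 0.39, and in 5ELKO against 5EL 9 of 12 lay below 0 with a median of -0.03 and 0 at that p.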
